A study of Mus with 18 samples.

Results

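The interleukin-1 family and its receptors were followed through 10 genes in mouse cells and mouse muscle. The genes were Il1a, Il1b, Il1rn, Il1r1, Il1r2, Il1rap, Il18, Il18bp, Il33 and Il1rl1, chosen by symbol, and all 10 had a row among the 21401 genes of each experiment. RNA-seq was made from C2C12 cells, a mouse myoblast line, and from gastrocnemius muscle of male C57BL/6 mice, all wild type, with 3 libraries in each of 3 groups. In cells the groups were control, LPS at 1 μg/mL, and LPS with MIC-1, for which the labels give 10 μM MIC-1 and the text of the study a lower dose. The labels give 24 h of treatment for the cells of the last group only, while the methods give 24 h for all cell treatments. LPS is the bacterial lipopolysaccharide and MIC-1 is moringa isothiocyanate-1, a compound of Moringa seeds, and the study asked whether it lowers the inflammatory response to LPS. The mice were given vehicle, LPS alone (10 mg/kg, intraperitoneal), or MIC-1 by gavage (80 mg/kg daily for 3 days) and then LPS, and muscle was taken 16 h after LPS. The labels call both controls saline, while the study names ethanol as the vehicle of MIC-1 in cells and DMSO by mouth for control mice. Nothing states that the 3 cell libraries of a group came from separate cultures, so p-values there measure the spread between libraries, which may be technical.

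IL-1α and IL-1β, the products of Il1a and Il1b, signal through the receptor IL-1R1, which pairs with the accessory protein encoded by Il1rap and passes the signal through MyD88 and the IRAK kinases to NF-κB. The pathway is held back by a soluble antagonist (Il1rn) and by a decoy receptor that does not signal (Il1r2). IL-18, with its binding protein (Il18bp), and IL-33, with its receptor ST2 (Il1rl1), are relatives with the same kind of signalling. IL-1β and IL-18 are made as precursors that inflammasome caspases cut, whereas IL-33 is an alarmin released by damaged stromal and epithelial cells. Macrophages are a main source of Il1b and Il1rn, and IL-1R1 is found on many stromal and muscle cells.

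Levels are given in FPKM (fragments scaled by transcript length and library size), which allows comparison between genes. The cell libraries did not all match their label. Control and LPS libraries carried macrophage genes, with lysozyme gene Lyz2 at 4694 ± 85.5 FPKM in control and 1838 ± 45.5 in LPS (SD, n = 3), but 17.1 ± 27.4 in LPS-MIC-1. Their myogenic genes were near 0, with desmin gene Des at 0.126 ± 0.135 and 0.498 ± 0.596 FPKM, against 398 ± 78.7 in LPS-MIC-1. The macrophage list summed to between 7104 and 7276 FPKM under LPS alone and to between 81.4 and 275 with MIC-1 added. The myogenic list of 11 genes had a median of at most 0.0184 FPKM in any control library and 0.0836 in any LPS library, and of 50.3 to 59.0 in the LPS-MIC-1 libraries. Every comparison of LPS-MIC-1 cells below sets libraries with opposite cell type markers beside each other, and treatment and cell identity cannot be told apart in them. In muscle, fibre genes such as Acta1 and Ckm led all libraries, and the LPS-labelled libraries lay close to control for LPS response genes while the LPS-MIC-1 libraries were high. The labels of the LPS and LPS-MIC-1 muscle libraries were used as given and could not be checked further, so each muscle comparison holds only as far as they are right. Low FPKM values lay on steps that gave the depth relative to control replicate 1, which was 0.464 to 1.022 in cells, lowest in LPS-MIC-1 replicate 3, and 0.988 to 1.111 in muscle.

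In the cell libraries, Il1a, Il1b and Il1rn were low in control, very high in LPS and low again in LPS-MIC-1. Il1a stood at 0.251, 0.249 and 0.300 FPKM in control, 137, 139 and 132 in LPS, and 4.90, 0.537 and 0.540 in LPS-MIC-1. The 3 groups did not overlap, and LPS was above both others in every library. Il1a rose by 8.54 ± 0.71 (log2 fold change of FPKM + 0.1 ± SE, limma adjusted p = 1.76e-05) from control to LPS and fell by 6.75 ± 0.71 from LPS to LPS-MIC-1 (adjusted p = 3.23e-05). Against control, LPS-MIC-1 differed by 1.79 ± 0.71 (adjusted p = 0.0458), which was not called.

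Il1b stood at 2.33, 1.92 and 2.32 FPKM in control, 162, 165 and 172 in LPS, and 5.09, 0.0970 and 0.185 in LPS-MIC-1. With LPS-MIC-1 replicates 2 and 3 taken as 1 read each, the control libraries came to about 27, 23 and 28 reads. The LPS libraries came to about 1596, 1620 and 1695, and LPS-MIC-1 replicate 1 to about 43. These are roundings on an assumed unit, since control lay at 27.15, 22.61 and 27.61 steps and LPS-MIC-1 replicate 1 at 42.56. One LPS-MIC-1 library thus lay above all controls and the other 2 far below them. From LPS to LPS-MIC-1, Il1b fell by 7.97 ± 1.07 (adjusted p = 0.000147, or 0.00135 with only those 6 libraries). LPS and control did not overlap, and their log2 difference was 6.19 ± 1.07, with an adjusted p of 0.00117 that missed the threshold of 0.001 because all 9 libraries share 1 spread. Without LPS-MIC-1 replicate 1 the same difference had an SE of 0.148 and an adjusted p of 1.49e-07. LPS-MIC-1 differed from control by -1.78 ± 1.07 (adjusted p = 0.155), and that value rests on replicate 1, as given with the counts below.

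Il1rn, the antagonist, was the most abundant of the 10 genes in control and LPS cells. It was at 13.5, 14.4 and 15.2 FPKM in control, 1374, 1410 and 1396 in LPS, and 47.9, 5.40 and 5.44 in LPS-MIC-1. It rose by 6.59 ± 0.75 with LPS (adjusted p = 0.000101) and fell by 6.94 ± 0.75 with LPS-MIC-1 (adjusted p = 3.56e-05). Against control, Il1rn in LPS-MIC-1 differed by -0.35 ± 0.75 (adjusted p = 0.674), and its direction turned to 0.17 without replicate 2 or 3 and became a called fall of -1.39 without replicate 1.

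**Figure D1:**
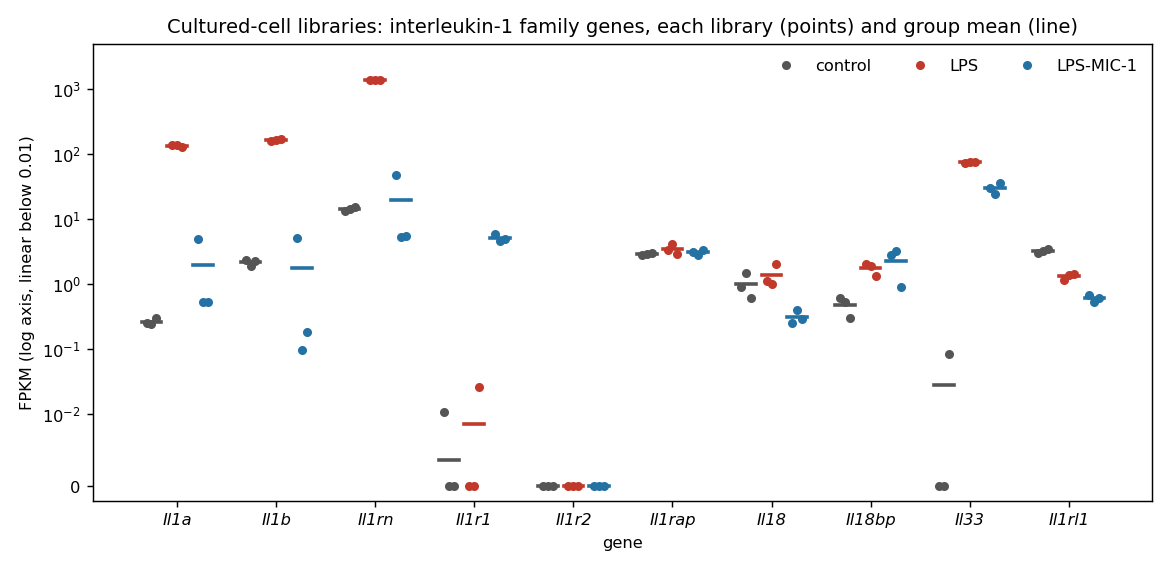
FPKM of the 10 genes in each of the 9 cell libraries (points) with group means (lines), on a log axis that is linear below 0.01. Il1a, Il1b and Il1rn stand apart in the 3 LPS libraries, Il33 is high in LPS and LPS-MIC-1, and Il1r1 is above 4 FPKM only in LPS-MIC-1.

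The level left in LPS-MIC-1 differed between libraries. Replicate 1 kept 3.60% of the LPS mean for Il1a, 3.06% for Il1b and 3.44% for Il1rn. In the same library the macrophage list, over 14 genes, had a median of 2.85% (range 2.49 to 6.66%). Replicates 2 and 3 kept 0.394 and 0.397% for Il1a, 0.0583 and 0.111% for Il1b, and 0.387 and 0.390% for Il1rn. Their macrophage medians were 0.116% (range 0 to 3.96%) and 0.0381% (range 0 to 4.33%). The part of the macrophage genes in these levels was not tested. Il33 kept 40.1, 31.9 and 48.0% of the LPS mean.

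**Figure D2:**
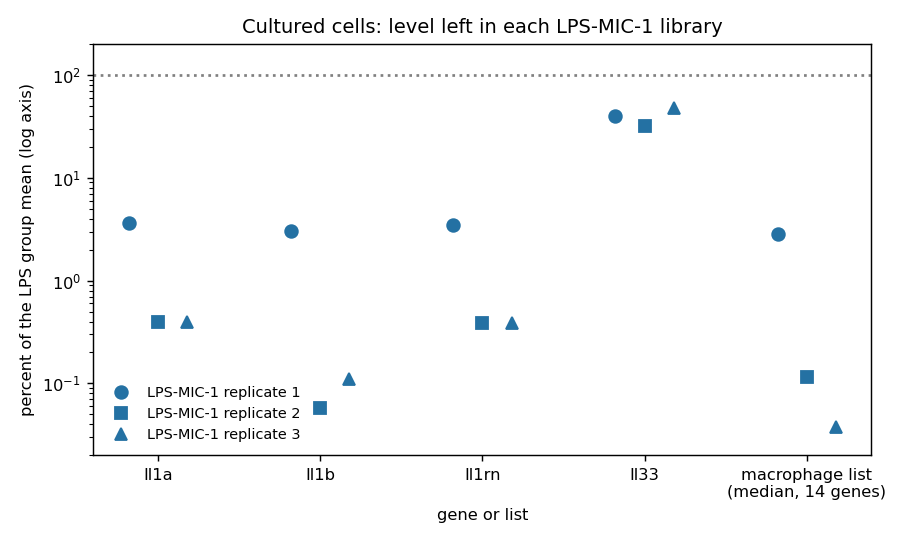
Level of Il1a, Il1b, Il1rn and Il33 and the median of 14 macrophage genes in each LPS-MIC-1 cell library, as a percent of the LPS group mean on a log axis, with a dotted line at 100%. Replicate 1 lies near 3% for the first 3 genes and for the macrophage list, and Il33 lies between 31.9 and 48.0% in all 3 libraries.

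Il1r1, which encodes the signalling receptor, showed the opposite order. It was at 0.0109, 0 and 0 FPKM in control, 0, 0 and 0.0258 in LPS, and 5.98, 4.67 and 4.97 in LPS-MIC-1. By the steps this was 1 read over the control libraries, 2 over LPS and about 981 over LPS-MIC-1. The last is a rounding, since the LPS-MIC-1 libraries lay at 392.62, 377.42 and 211.30 steps. The ratio to LPS was 601 with a 95% exact interval of 166 to 4970, which covers counting error only. Il1r1 rose by 5.61 ± 0.16 in LPS-MIC-1 against LPS (adjusted p = 1.77e-08) and by 5.67 ± 0.16 against control (adjusted p = 1.57e-08), and no LPS effect was detectable (0.06 ± 0.16). The summed myogenic list went beside it from 2.52 to 4.58 FPKM in the LPS libraries to between 1127 and 1429, and the fibroblast list from 0.973 to 2.09 to between 464 and 562, with Col3a1 going from 0.127 ± 0.211 FPKM to 227 ± 32.2, and their part was not tested.

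Il1r2, the decoy receptor gene, was listed at 0 in all 9 cell libraries. Il1rap, the accessory chain gene, stood at 2.81, 2.92 and 3.04 FPKM in control, 3.35, 4.14 and 2.96 in LPS, and 3.17, 2.78 and 3.36 in LPS-MIC-1. The groups overlapped, and differences of 0.23 ± 0.14, -0.15 ± 0.14 and 0.08 ± 0.14 did not pass the test. Il1rl1, the IL-33 receptor gene, was at 2.99, 3.21 and 3.51 FPKM in control, 1.17, 1.37 and 1.42 in LPS, and 0.678, 0.541 and 0.606 in LPS-MIC-1. Its groups did not overlap, and the order ran from control down to LPS-MIC-1. Il1rl1 fell by 1.24 ± 0.14 with LPS (adjusted p = 8.6e-05) and by 2.24 ± 0.14 in LPS-MIC-1 against control (adjusted p = 1.13e-06). The step from LPS to LPS-MIC-1 was -1.0 ± 0.14 (adjusted p = 0.000158), on the fold threshold itself. The soluble and membrane forms of ST2 come from this 1 gene and were not told apart.

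Il33 was at 0, 0 and 0.0830 FPKM in control, 74.6, 76.3 and 76.0 in LPS, and 30.3, 24.1 and 36.3 in LPS-MIC-1. All libraries of LPS were above those of LPS-MIC-1, and both were above control. The gene rose by 9.27 ± 0.25 with LPS (adjusted p = 6.1e-08) and stayed 7.93 ± 0.25 above control in LPS-MIC-1 (adjusted p = 2.43e-08), with sizes that depend on the pseudocount because control was near 0. Its difference between LPS-MIC-1 and LPS was -1.34 ± 0.25 with an adjusted p of 0.00107, just short of the threshold.

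Il18, the other caspase-cut cytokine gene, stood at 0.902, 1.52 and 0.617 FPKM in control, 1.12, 1.02 and 2.03 in LPS, and 0.250, 0.405 and 0.290 in LPS-MIC-1. Control and LPS overlapped and LPS-MIC-1 lay below both. Its mean was under 1 FPKM, so it was fitted only without the filter, where -1.80 ± 0.36 against LPS had an adjusted p of 0.00194. Il18bp, which encodes the protein that neutralises IL-18, was at 0.618, 0.535 and 0.302 FPKM in control, 2.06, 1.89 and 1.33 in LPS, and 2.79, 3.22 and 0.911 in LPS-MIC-1. LPS and LPS-MIC-1 overlapped and both lay above control. None of its 3 differences was called, at 1.69 ± 0.46, 0.22 ± 0.46 and 1.91 ± 0.46 on the log2 scale, although leaving out LPS-MIC-1 replicate 3, the shallowest library, took the first to an adjusted p of 0.000882 and the last to 2.45 with 0.000161.

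The balance of antagonist and cytokine followed as a ratio of FPKM, given without a test. The control libraries had an Il1rn over Il1b of 5.81 to 7.53 and the LPS libraries of 8.12 to 8.53. In LPS-MIC-1 the ratio was 9.41, 55.6 and 29.4, where the last 2 rest on the lowest Il1b values, taken as 1 read each. For Il18bp over Il18, control spanned 0.353 to 0.685, LPS alone 0.653 to 1.85, and the LPS-MIC-1 libraries 3.15 to 11.2. Il1rn thus exceeded Il1b in every cell library.

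Over the cell comparisons, 8 of the 10 genes passed the filter of a mean over 1 FPKM, and Il18 and Il1r2 did not. Il1r1 passed only through LPS-MIC-1 and Il1rl1 only through control, so these counts describe the genes and support nothing. From control to LPS, 3 of 8 were called higher (Il1a, Il1rn, Il33) and 1 lower (Il1rl1), against 10.9% and 10.0% of all 10877 tested genes, and their median log2 fold change was 3.94 against 0.00 over all genes. Between LPS and LPS-MIC-1, 1 was higher (Il1r1) and 4 lower (Il1a, Il1b, Il1rn, Il1rl1), where 24.3% of all genes were higher and 25.6% lower, with medians of -1.17 and -0.05. Against control, LPS-MIC-1 had 2 higher (Il1r1, Il33) and 1 lower (Il1rl1), where all genes gave 21.1% and 22.1%, with medians of 0.94 and -0.06. Without LPS-MIC-1 replicate 1, the lower genes were 3, since Il1b (-3.27 ± 0.17, adjusted p = 1.27e-06) and Il1rn joined.

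**Figure D3:**
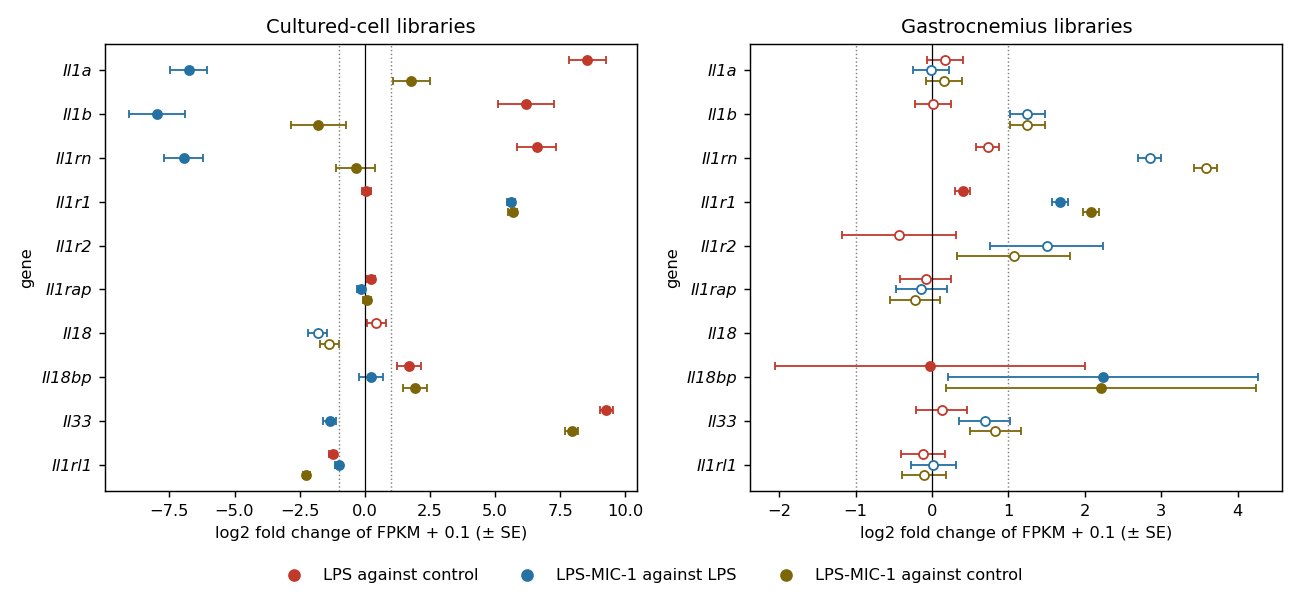
Log2 fold change of FPKM + 0.1 (points, bars SE) of each gene in 3 comparisons, for cells (left) and muscle (right, with its own axis). Filled points passed the filter of a mean over 1 FPKM, open points come from the fit without it, dotted lines mark the fold threshold of 1, and genes above 0 in under 3 libraries have no point. Il1b and Il1rn lie left of 0 in cells and right of 0 in muscle for LPS-MIC-1 against LPS, and Il1r1 lies right of 0 in both.

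In gastrocnemius muscle, Il1r1 had the highest mean of the 10 genes in every group and was itself highest in LPS-MIC-1. It was at 2.34, 2.20 and 2.32 FPKM in control, 2.83, 3.41 and 2.91 in LPS, and 11.05, 10.1 and 8.90 in LPS-MIC-1. The 3 groups did not overlap. Il1r1 rose by 1.68 ± 0.10 in LPS-MIC-1 against LPS (adjusted p = 2.81e-06) and by 2.08 ± 0.10 against control (adjusted p = 7.63e-07). The LPS difference of 0.40 ± 0.10 had an adjusted p of 0.0358 but was under the fold threshold of 1. In bulk tissue, more cells of a type and more RNA per cell cannot be told apart.

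Il1rn was listed at 0 in the 3 control libraries, at 0.0667, 0.0649 and 0.0662 FPKM in LPS, and at 1.11, 1.07 and 1.10 in LPS-MIC-1. Its groups did not overlap. In the fit without the FPKM filter it was higher in LPS-MIC-1 than in LPS by 2.85 ± 0.15 (adjusted p = 2.14e-06), and higher than control with an adjusted p of 5.37e-07, for which no fold is given because control was at 0. Il1b was at 0.0635, 0.0630 and 0.0636 FPKM in control, 0.0640, 0.0644 and 0.0636 in LPS, and 0.375, 0.361 and 0.171 in LPS-MIC-1. These values were 1 read in each control and LPS library and 6, 6 and 3 reads in LPS-MIC-1. The ratio to LPS was 4.68, with a 95% exact interval of 1.32 to 25.2 for counting error only, and the fit without the filter gave 1.25 ± 0.23 (adjusted p = 0.00305). Il1a never exceeded 1 read in a muscle library, so a difference was not detectable at this depth.

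**Figure D4:**
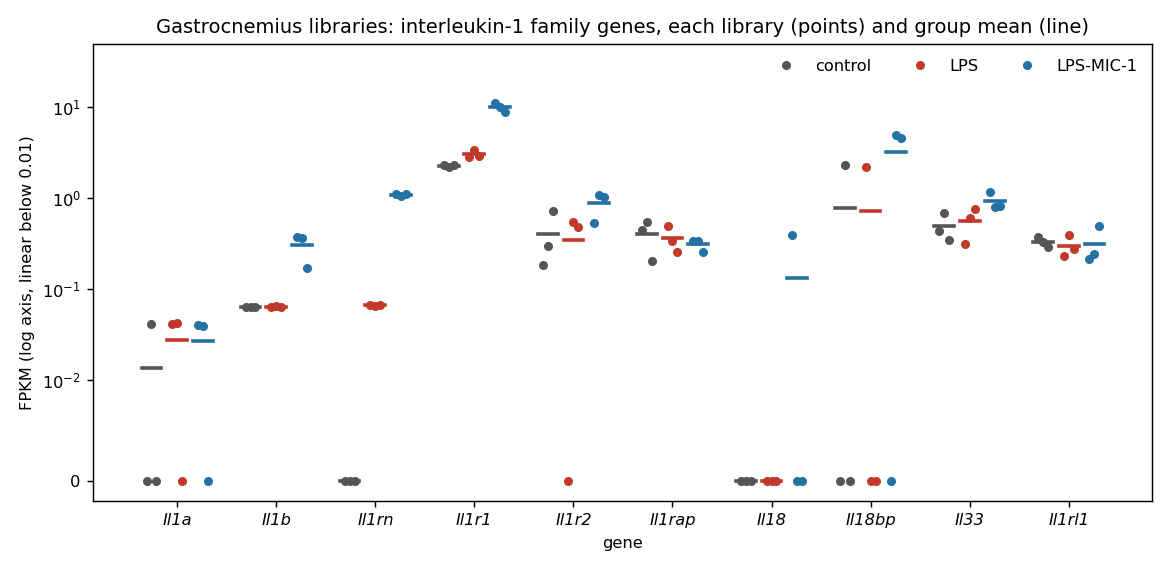
FPKM of the 10 genes in each of the 9 muscle libraries (points) with group means (lines), on a log axis that is linear below 0.01. Il1r1, Il1rn and Il1b are highest in the 3 LPS-MIC-1 libraries, and control and LPS libraries of Il1b coincide at 1 read each.

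The remaining genes were low in muscle. Il1r2 was at 0.182, 0.301 and 0.730 FPKM in control, 0, 0.553 and 0.486 in LPS, and 0.537, 1.09 and 1.03 in LPS-MIC-1, with overlapping groups and an adjusted p of 0.153 for LPS-MIC-1 against LPS. Its level was 0 to 0.314 of that of Il1r1, without a test. Il33 was at 0.438, 0.684 and 0.346 FPKM in control, 0.315, 0.601 and 0.751 in LPS, and 1.17, 0.801 and 0.816 in LPS-MIC-1. All LPS-MIC-1 libraries were above the others, but 0.69 ± 0.34 against LPS had an adjusted p of 0.143. Il1rap lay between 0.203 and 0.554 FPKM and Il1rl1 between 0.211 and 0.490 over the 9 libraries, with overlapping groups. Il18 was listed at 0 in 8 of 9 libraries, with 0.392 in LPS-MIC-1 replicate 1. Il18bp was at 0, 2.32 and 0 FPKM in control, 2.18, 0 and 0 in LPS, and 0, 4.96 and 4.65 in LPS-MIC-1, and the difference of 2.24 ± 2.03 against LPS was within the spread between libraries (adjusted p = 0.379).

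Only Il1r1 and Il18bp passed the filter in muscle, Il18bp only through LPS-MIC-1. From control to LPS, limma called 0 of these 2, and Il1r1 alone had an unadjusted p under 0.05, where 0.654% of all 9475 tested genes were higher and 0.591% lower. For LPS-MIC-1, 1 of 2 was higher against LPS and 1 of 2 against control, where all genes gave 9.67% and 9.33%, and none was lower, where all genes gave 5.44% and 6.12%. Without the filter, 3 genes (Il1b, Il1rn, Il1r1) were higher in both comparisons, where all genes gave 8.81% and 8.58%. Quantile normalization moved the median of all genes by -0.11 in both comparisons, and Il1r1 was then at 1.52 ± 0.10 and 1.96 ± 0.10, still called.

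Markers of other cell types also differed between the muscle groups, in both directions. The summed neutrophil list ranged over 1.76 to 2.74 FPKM (control), 1.80 to 2.02 (LPS) and 14.95 to 20.04 (LPS-MIC-1). Its gene S100a8 went from 0.491 ± 0.425 under LPS to 7.38 ± 0.118. Cxcr2 did not follow, at 1.58 ± 0.358 (control), 1.17 ± 0.141 (LPS) and 1.44 ± 0.336 FPKM (LPS-MIC-1), with overlapping groups. The summed macrophage list was 16.6 to 19.8, 21.9 to 25.1 and 33.3 to 191 FPKM in the same order. Replicate 3 of LPS-MIC-1 held most of it, with Lyz2 at 78.3 FPKM against 5.27 and 3.93 in the other 2. Fcer1g was higher in all 3 LPS-MIC-1 libraries, at 15.5 to 25.96 FPKM against 6.499 to 7.954 under LPS. Limma called 3 of 7 tested macrophage genes higher and 0 lower in LPS-MIC-1 against LPS. Of all tested genes 9.67% were higher and 5.44% lower. Of the 7, 2 passed the filter only through LPS-MIC-1. The summed endothelial list was lowest under LPS, at 55.27 to 57.52 FPKM. The LPS-MIC-1 range of 83.65 to 92.99 enclosed that of control, 86.68 to 91.98. In LPS-MIC-1 against LPS, 3 of 6 tested endothelial genes were higher and 1 lower at an unadjusted p under 0.05 and any fold. Limma called 1 higher and 0 lower. From LPS to LPS-MIC-1, the endothelial gene Cldn5 went from 5.64 ± 0.615 to 31.5 ± 2.47 FPKM. Cdh5 went from 18.9 ± 0.736 to 21.9 ± 1.88. Of the fibroblast genes, Dcn went from 74.6 ± 0.600 to 120 ± 7.91 FPKM and Col3a1 from 16.9 ± 0.913 to 7.23 ± 0.274. The 8 genes of the mast cell list summed to 1.16 to 1.99 FPKM under LPS and 7.34 to 8.88 with MIC-1 added. Of these, Kit went from 0.123 ± 0.0476 to 5.34 ± 0.402 FPKM, Hdc from 0.0222 ± 0.0384 to 1.49 ± 0.289 and Tpsb2 from 0.690 ± 0.456 to 0.308 ± 0.205. Their part in the interleukin-1 values was not tested.

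The other genes of the pathway were followed in lists, given in cells first. Of the other family genes, 3 of 11 passed the filter, Il1f6 only through LPS and Il18rap only through LPS-MIC-1. From control to LPS 2 rose, Il1f6 (IL-36α) by 6.28 ± 0.54 and Il1f9 (IL-36γ) by 4.45 ± 0.11, both epithelial-type cytokines of the family. The receptor gene Il18rap fell by 1.35 ± 0.13, where 10.9% of all tested genes rose and 10.0% fell. From LPS to LPS-MIC-1, Il1f6 and Il1f9 fell by 5.32 ± 0.54 and 2.78 ± 0.11 and Il18rap rose by 1.88 ± 0.13. In that comparison 25.6% of all tested genes fell and 24.3% rose. Of the 18 signalling genes, 4 rose and 0 fell with LPS in limma (8 higher and 5 lower at an unadjusted p under 0.05 and any fold), where 10.9% of all tested genes rose and 10.0% fell, led by the kinase gene Irak2 (16.8 ± 0.899 to 121 ± 0.602 FPKM) and the ubiquitin ligase gene Peli1 (7.07 ± 0.187 to 22.9 ± 0.743). In LPS-MIC-1 against LPS, 8 of 18 fell and 1 rose, where 25.6% of all tested genes fell and 24.3% rose. Irak3 encodes a brake on IRAK signalling found mostly in macrophages. It went from 20.7 ± 0.555 FPKM in LPS to 0 in all 3 LPS-MIC-1 libraries. The 1 that rose was Peli2, by 5.18 ± 0.16. Peli2 passed the filter only through LPS-MIC-1, so the filter alone required it to be high there.

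Of the genes that process the cytokines, 9 of 11 were tested in cells. With LPS 2 rose, against the same shares of all genes, Casp4 (caspase-11, the sensor of intracellular LPS) by 2.48 ± 0.09 and the calpain gene Capn2, whose family cuts pro-IL-1α, by 1.12 ± 0.05. From LPS to LPS-MIC-1, 3 of 9 rose and 5 fell, where 24.3% of all tested genes rose and 25.6% fell. Those that fell included the inflammasome sensor genes Nlrp1b (-4.57 ± 0.27) and Aim2 (-3.44 ± 0.17). Of 15 genes that answer IL-1 and NF-κB, 10 rose and 0 fell with LPS in limma (11 higher and 0 lower at an unadjusted p under 0.05). Of all tested genes 10.9% rose and 10.0% fell. The largest rises were those of the growth factor gene Csf3 (12.57 ± 1.40) and lipocalin gene Lcn2 (11.20 ± 1.08). In LPS-MIC-1 against LPS, 12 fell and 3 rose, where 25.6% of all tested genes fell and 24.3% rose. The 3 that rose passed the filter only through LPS-MIC-1. They included the chemokine gene Cxcl1 (0.436 ± 0.622 to 491 ± 86.4 FPKM) and the matrix protease gene Mmp3 (0.134 ± 0.202 to 176 ± 14.8).

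In muscle the 15 response genes had a median per library of 0.111 to 0.286 FPKM for control, 0.572 to 0.856 for LPS and 4.95 to 5.19 for LPS-MIC-1. Of 11 tested, 8 passed the filter only through LPS-MIC-1, so the filter alone required them to be high there. From control to LPS, where 0.654% of all tested genes rose, 2 rose, the acute-phase gene Saa3 (listed at 0 in control, 1.03 ± 0.265 FPKM in LPS) and Ccl2 (1.35 ± 0.28). From LPS to LPS-MIC-1, 10 rose and 0 fell in limma (11 higher and 0 lower at an unadjusted p under 0.05), where 9.67% of all tested genes rose and 5.44% fell. Lcn2 went from 0.972 ± 0.552 FPKM to 1248 ± 79.1, and Saa3 was at 511 ± 31.9. Of 15 signalling genes, limma called 0 for LPS (1 higher and 1 lower at an unadjusted p under 0.05 and any fold), and 3 rose in LPS-MIC-1 against LPS, where 9.67% of all tested genes rose, led by Irak2 (1.63 ± 0.15) and the adaptor gene Myd88 (1.40 ± 0.19), and Tollip, which encodes an adaptor that restrains IRAK1, rose by 1.33 ± 0.20 against control. Of 5 processing genes, limma called 1 higher and 0 lower with LPS, where 0.654% of all tested genes rose and 0.591% fell. At an unadjusted p under 0.05 and any fold, 1 was higher and 1 lower. The called gene was Nek7, a partner of NLRP3, at 1.12 ± 0.11. In LPS-MIC-1 against LPS, 1 of 5 rose and 0 fell, where 9.67% of all tested genes rose and 5.44% fell. It was Casp4, by 2.81 ± 0.22, which passed the filter only through LPS-MIC-1.

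**Figure D5:**
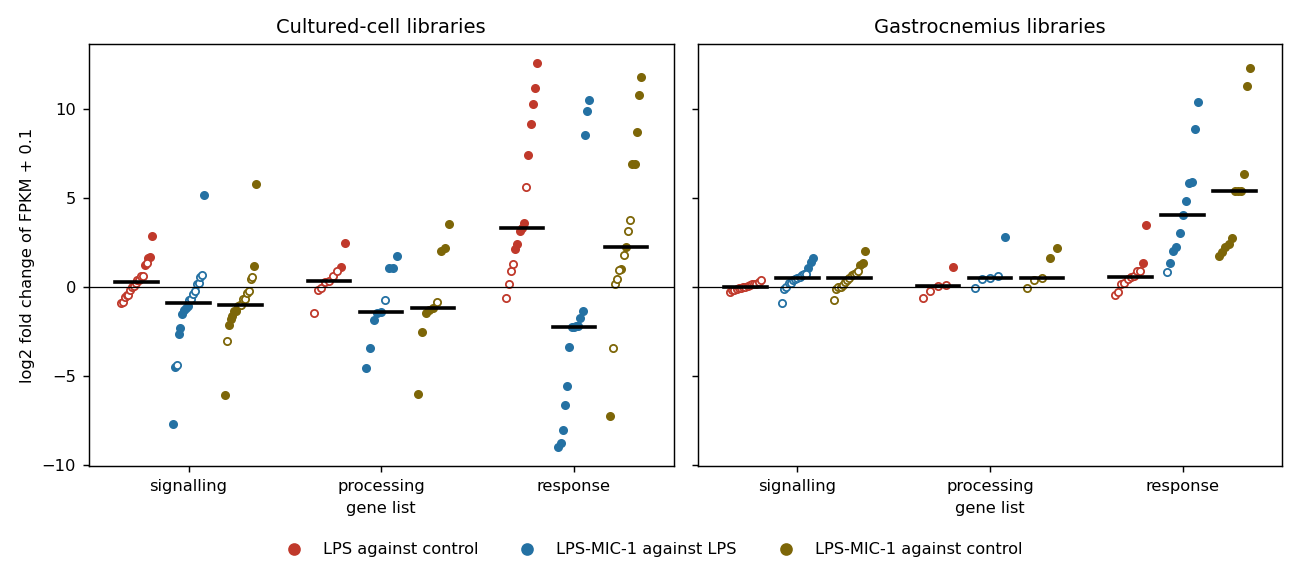
Log2 fold change of FPKM + 0.1 of the tested signalling, processing and response genes in 3 comparisons, for cells (left) and muscle (right). Each point is a gene, filled where called, and black lines are list medians. In LPS-MIC-1 against LPS, 12 of 15 response genes were called lower in cells, against 25.6% of all tested genes. In muscle 10 of 11 were called higher, against 9.67% of all tested genes, and 8 of the 11 passed the filter only through LPS-MIC-1.

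Genes with the most similar pattern over the 9 libraries were found by Pearson's r on log2(FPKM + 0.1), as a description, since libraries share 3 group levels. For Il1b in cells they were Mpzl1 (r = 0.9985), A530032D15Rik (0.9960) and Irg1 (0.9948), the last of which makes itaconate in macrophages. For Il1r1 in cells they were Pnmal2 (0.9997), Syde1 (0.9996) and Ccdc102a (0.9996). For Il1r1 in muscle they were Ppme1 (0.9976), Hsf2 (0.9976) and Sf3b1 (0.9967), and for Il1b in muscle, on 1 to 6 reads, Anapc7 (0.9866), Tnrc6a (0.9828) and Prosc (0.9814). In the RefSeq gene order of GRCm38.p6, Il1a and Il1b are neighbours, and Il1r2, Il1r1, Il1rl2, Il1rl1, Il18r1 and Il18rap follow each other. Of this receptor group in cells, Il1r2 and Il1rl2 were at 0 in every library, and Il1r1 rose and Il1rl1 fell in LPS-MIC-1 against control.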

How the data were processed

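The authors pseudoaligned reads with kallisto 0.46.11 and deposited 1 FPKM value per gene and library. The submitters' processing notes name mm9 and DESeq2 1.30.13. The DESeq2 tables hold the authors' own fold changes and p-values and were not used, nor were 9 per-sample columns without a name beside the muscle values. In each file 26 symbols had turned into dates or numbers. Read numbers are not stated, so depth was taken from the most common ratio of low FPKM values in each library to those in control replicate 1. Reads are given only for genes whose low values lay within 0.1 of a whole step. Higher values of these genes were rounded to whole steps.

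Values were converted to log2(FPKM + 0.1), and genes with a mean above 1 FPKM entered 1 limma model per experiment (limma 3.58.1, R 4.3.3) with 3 group means over its 9 libraries and a trended eBayes step. The Benjamini-Hochberg adjustment ran across every gene in the model. A gene was called where the log2 fold change exceeded 1 in either direction and the adjusted p was below 0.001 (cells) or 0.05 (muscle). The alternative without the filter took genes above 0 in at least 3 libraries. Read ratios have exact 95% intervals. The limma fit was tested on simulated data, and the read steps were not. An exact permutation test of 3 against 3 libraries cannot go below p = 0.1 and was not used.

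The 10 genes, the gene lists and the markers were chosen with earlier results of these data known. Named genes were all 10 and, of each pathway list and comparison, the 2 with the largest change among called genes. The 3 most similar to Il1b and to Il1r1 were also named. Marker genes were named from the 2 most abundant of each list in either experiment, and not all of these are printed. Alternatives were other pseudocounts (1 and 0.01), filters (none, mean over 5), a fit of the 6 libraries compared alone, eBayes with no trend, a replicate block, quantile normalization, median-ratio scaling, the other p threshold, and leaving out each library. Figures used matplotlib 3.10.9.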

Additional observations from a re-analysis of the deposited data

Results flagged for a closer look

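In these genes the libraries of the compared groups did not overlap and lay in opposite directions in cells and in muscle. The difference between the experiments was not tested, and values are differences of mean log2(FPKM + 0.1), cells first and muscle second. Of all 14182 genes above 0 in at least 3 libraries of both experiments, 12.4% were lower in cells and higher in muscle in this way for LPS-MIC-1 against LPS, and 13.6% the reverse. The cell values compare libraries with opposite macrophage and myogenic markers.

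Between LPS-MIC-1 and LPS, 3 of the 8 family genes that could be compared went that way. They were Il1b (-7.97 and 1.25), Il1rn (-6.94 and 2.85) and Il33 (-1.34 and 0.69, neither called), where the muscle calls of Il1b and Il1rn come from the fit without the filter. Of the signalling list 8 of 18 did, among them, of the genes named by the rule, Irak2 (-4.50 and 1.63), Irak3 (-7.70 and 2.38, listed at 0 in all LPS-MIC-1 cell libraries, and with a mean under 1 FPKM in muscle), Peli1 (-2.67 and 0.46, not called in muscle), Myd88 (-1.21 and 1.40) and Tollip (-2.33 and 1.07). Of the response list 11 of 15 did, among them, of the genes named by the rule, Csf3 (-8.79 and 5.88), Lcn2 (-8.05 and 10.37), Saa3 (-3.40 and 8.85) and Ccl2 (-1.33 and 4.02).

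Between LPS and control, Casp4 was at 2.48 and -0.62 (not called in muscle) and Nek7 at -0.15 (not called) and 1.12. Of all genes 5.37% went each way, against 1 of 10 processing genes each way and 0 of the 8 family genes. Between LPS-MIC-1 and control, Irak2 was at -1.66 and 2.00, Peli1 at -0.99 and 0.50 (neither called), Nek7 at -0.86 (not called) and 1.60, Myd88 at -1.79 and 1.25, and Tollip at -1.09 and 1.33. Here 11.9% of all genes were lower in cells and higher in muscle and 14.1% the reverse. Of the lists, 6 of 18 signalling, 1 of 10 processing, 1 of 15 response and 0 of 8 family genes were lower in cells and higher in muscle.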

How the results depend on the processing

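In cells, the number of family genes higher in LPS than control was 3, 4 with a pseudocount of 1, a mean FPKM over 5 or only the 6 libraries compared (Il1b joined), and 5 at an adjusted p under 0.05, and the number lower was 1, and 0 with a pseudocount of 1, a mean FPKM over 5 or quantile normalization. Higher in LPS-MIC-1 than LPS was 1, and 0 with a mean FPKM over 5, which Il1r1 does not reach. Against control LPS-MIC-1 had 2 higher, 1 with a mean over 5 and 4 at an adjusted p under 0.05, and 1 lower, 0 with a mean over 5. In muscle, 1 gene was higher in LPS-MIC-1 against LPS and against control, and 3 in each without the filter. Leaving out each library gave 3 to 4 higher and 1 lower for LPS, 1 higher and 3 to 5 lower for LPS-MIC-1 against LPS, 2 to 3 higher and 1 to 3 lower against control in cells, and 1 higher in muscle throughout for both LPS-MIC-1 comparisons.

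No value was called after its sign turned. Il1r1 in cells, LPS against control, was -0.17 with quantile normalization and -0.05 to 0.12 with each library left out (lowest without LPS replicate 3). Il18bp in cells, LPS-MIC-1 against LPS, ran from -0.10 (without LPS-MIC-1 replicate 2) to 0.76 (without replicate 3). Il1rn in cells, LPS-MIC-1 against control, ran from -1.39 (without LPS-MIC-1 replicate 1, where it was called) to 0.17 (without replicate 2 or 3). Il18bp in muscle, LPS against control, ran from -1.53 (without LPS replicate 1) to 1.50 (without control replicate 2), with 0.72 without LPS replicate 2 or 3. The causes were not tested. Il1rl1 in cells, LPS-MIC-1 against LPS, lost its call in 8 of 18 alternatives.

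Replicate numbers did not pair libraries, with correlations of deviations between same-numbered libraries of -0.076 to 0.057 in cells and -0.054 to 0.082 in muscle. With a replicate block, Il33 (-1.34, adjusted p = 0.000883) and Il18bp against control (1.91, 0.000745) were called in cells and Il1rl1 (-1.0, 0.00101) was not. Quantile normalization changed the muscle calls over all genes from 916 higher and 515 lower to 781 and 667 against LPS, and from 884 and 580 to 782 and 713 against control. Genes at 1 to 6 reads in muscle, such as Il1a and Il1b, are limited by depth.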
